A study of Mus musculus with 47 samples.

Results

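The 8 genes described here handle cholesterol and plant sterols in the intestinal wall: Npc1l1, Abcg5, Abcg8, Abca1, Scarb1, Soat2, Nr1h3 and Mylip. They were taken by symbol from a table of raw exon counts that lists 38087 genes, and all 8 were found and passed the filter on low counts in every comparison. RNA came from duodenum (the part of the small intestine next to the stomach) and ileum (the part next to the colon) of male C57BL/6J mice, 15 to 16 weeks old, fed ad libitum. One set of mice had been kept free of microorganisms (germ-free, GF) and the other had a normal flora (conventionally raised, convR). Each tissue and status was sampled over the day, counted in hours from lights on (zeitgeber time, ZT), at 2, 6, 10, 14, 18 and 22, with 2 libraries per time except 1 for GF ileum at ZT2. That gave 12 libraries each of convR duodenum, GF duodenum and convR ileum, and 11 of GF ileum. No group carried an engineered allele or a drug according to the labels, and nothing in them says that each library is a separate animal. The p-values therefore speak only of variation among these libraries, which may be technical.

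As background, enterocytes take up cholesterol and plant sterols from the gut lumen through NPC1L1, the target of the drug ezetimibe. The transporters ABCG5 and ABCG8 work only as a pair and pump plant sterols and surplus cholesterol back into the lumen. SOAT2 esterifies absorbed cholesterol for packing into chylomicrons, while ABCA1 passes it across the basal membrane to apolipoprotein A1. SCARB1 (SR-BI) is a receptor for high-density lipoprotein. NR1H3 (LXR alpha) is a nuclear receptor that senses oxysterols and switches on Abca1, Abcg5, Abcg8 and Mylip. MYLIP (IDOL) is a ubiquitin ligase that marks the LDL receptor for breakdown.

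Abcg5 and Abcg8 lie on opposite strands of chromosome 17. Of their RefSeq transcript starts, 84683011 on the minus strand (Abcg5) and 84683121 on the plus strand (Abcg8) of mm10 lie head to head, 109 bases apart. The promoter windows of these starts (250 bases before to 50 bases after each, RefSeq on GRCm38.p6) therefore share 209 bases, shown because the levels of both genes moved together across libraries. Abcg8 also has a second RefSeq window, chr17:84676052-84676351, within the span of Abcg5. The Abca1 window is shown because this gene had the widest daily amplitude of the 8 in duodenum (2.13 log2 in convR and 3.14 in GF). Capitals mark a GATA box (GATAAG, read on the minus strand) in the shared stretch. In the Abca1 window they mark an E-box (CACGTG) and a pair of AGGTCA elements 4 bases apart with at most 3 of its 12 letters mismatched, also read on the minus strand.
Abcg5-Abcg8, chr17:84682962-84683170, plus strand: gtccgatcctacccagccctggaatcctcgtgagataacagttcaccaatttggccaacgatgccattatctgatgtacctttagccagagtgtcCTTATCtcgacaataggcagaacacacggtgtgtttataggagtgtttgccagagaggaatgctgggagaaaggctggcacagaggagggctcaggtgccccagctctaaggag
Abca1, chr4:53159846-53160145, minus strand: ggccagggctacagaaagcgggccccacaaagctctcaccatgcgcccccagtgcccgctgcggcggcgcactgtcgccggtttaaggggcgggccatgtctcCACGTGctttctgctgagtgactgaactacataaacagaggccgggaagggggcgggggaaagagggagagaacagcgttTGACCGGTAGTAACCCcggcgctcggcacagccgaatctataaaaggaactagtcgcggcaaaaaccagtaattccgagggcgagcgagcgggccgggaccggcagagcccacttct
Of 32851 promoter windows of 300 bases, 7.15% held the E-box, 7.44% the GATA box and 21.9% such a pair, on either strand and counting overlaps with other motifs. In the Abca1 window the E-box began at position -147 and the pair at -67, counting the start base as 0. Windows were found for 6 of the 8 genes (8 windows), and no entry was matched for Scarb1 and Soat2. The E-box, the GATA box, the pair, a sterol element core (TCACNCCAC) and the D-box of clock output genes (TTATGTAA) were not found in the windows of Npc1l1, Mylip and Nr1h3. A lone AGGTCA element (16.3% of windows) was found in the Npc1l1 window. A CCAAT box (37.4% of windows) was found in those of Npc1l1, Mylip, Abcg5 and the Abcg8 start facing Abcg5. The second Abcg8 window held none of the motifs searched. A match is a description of letters and not a measured binding site.

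The other members lie on separate chromosomes (mm10, GENCODE M21). Npc1l1 spans chr11:6211013-6230143, Scarb1 chr5:125277087-125341094, Soat2 chr15:102150526-102163469, Nr1h3 chr2:91184061-91202834 and Mylip chr13:45389742-45412022. Abca1 spans chr4:53030787-53159895, Abcg5 chr17:84658234-84683011 and Abcg8 chr17:84676302-84700333. Exons of Abcg5 and Abcg8 overlap on opposite strands over 82 bases, which is 3.02% of the exon bases of Abcg5 and 2.19% of those of Abcg8. Whether the authors counted by strand is not given in the sources used here, so reads in those bases are uncertain. Nr1h3 shares 34 exon bases, 1.35% of its own, with the predicted gene Gm13783. These overlaps are those of M21. The deposited exon length of Abcg8 was 4268 bases against 3749 in M21, and the lengths of Scarb1, Soat2, Nr1h3 and Mylip differed too. The overlaps in the annotation used for counting are therefore not known.

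Libraries held 22.5 to 41.9 M counts each. All 9 enterocyte markers averaged at least 1 CPM (counts scaled by library size) in each group, and the ileal bile acid genes separated the tissues, with a summed level of 5 markers of 94.4 to 304.4 CPM in duodenum and 608.9 to 5582 CPM in ileum. The summed level of 6 duodenal region markers was 1677.5 to 3640.6 CPM in convR and 3679.9 to 4483.3 CPM in GF duodenum. In ileum it varied widely, from 74.7 to 1134.8 CPM in convR and from 43.4 to 1821.7 CPM in GF, which reached above the lowest convR duodenal library. The part of this variation in the results was not tested. Of the 47 libraries 11 stood apart, through pancreatic or gastric transcripts, scaling or ileal bile acid genes, and 9 of these were duodenal (6 convR, 3 GF). Summed levels of 10 acinar pancreas markers ran from 11.6 to 8611 CPM in duodenum, and those of 10 stomach and Brunner gland markers from 3.65 to 16414 CPM. For the members, the ratios and the gene lists, the main duodenal values are set beside those without these libraries. That smaller set kept 6 convR and 9 GF duodenal libraries and had no convR duodenal library at ZT6 or ZT14. The part of fewer libraries and times in the calls lost there was not tested. In bulk tissue, fewer cells of a type and less RNA per cell cannot be told apart.

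Npc1l1 was the most abundant member per length of exon in each of the 4 groups, and Scarb1 in ileum the least. In CPM per kilobase of exon, Npc1l1 averaged 100.1 ± 31.7 in convR duodenum, 128.2 ± 48.9 in GF duodenum, 115.7 ± 44.8 in convR ileum and 131.0 ± 45.8 in GF ileum (SD, n = 12, 12, 12 and 11). Abcg5, Soat2 and Abcg8 followed in that order in every group, at 96.4 ± 25.3, 69.0 ± 13.8 and 48.2 ± 15.6 CPM per kilobase in convR duodenum (SD, n = 12). Each of these neighbours overlapped with the next over libraries. The lowest library of Abcg8 lay above the highest of Nr1h3, the next gene by mean, in all 4 groups. Abca1, lower by mean, reached 44.9 CPM per kilobase in convR duodenum, above the lowest Abcg8 value of 30.2. Nr1h3, at 13.0 ± 2.43 CPM per kilobase in convR duodenum, overlapped with Abca1 at 12.2 ± 11.02. The last places differed by tissue. Scarb1 (5.65 ± 3.66) stood above Mylip (2.01 ± 0.77) in convR duodenum with overlapping libraries, whereas in convR ileum Mylip (8.40 ± 1.58) stood above Scarb1 (0.632 ± 0.112) without overlap.

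**Figure D1:**
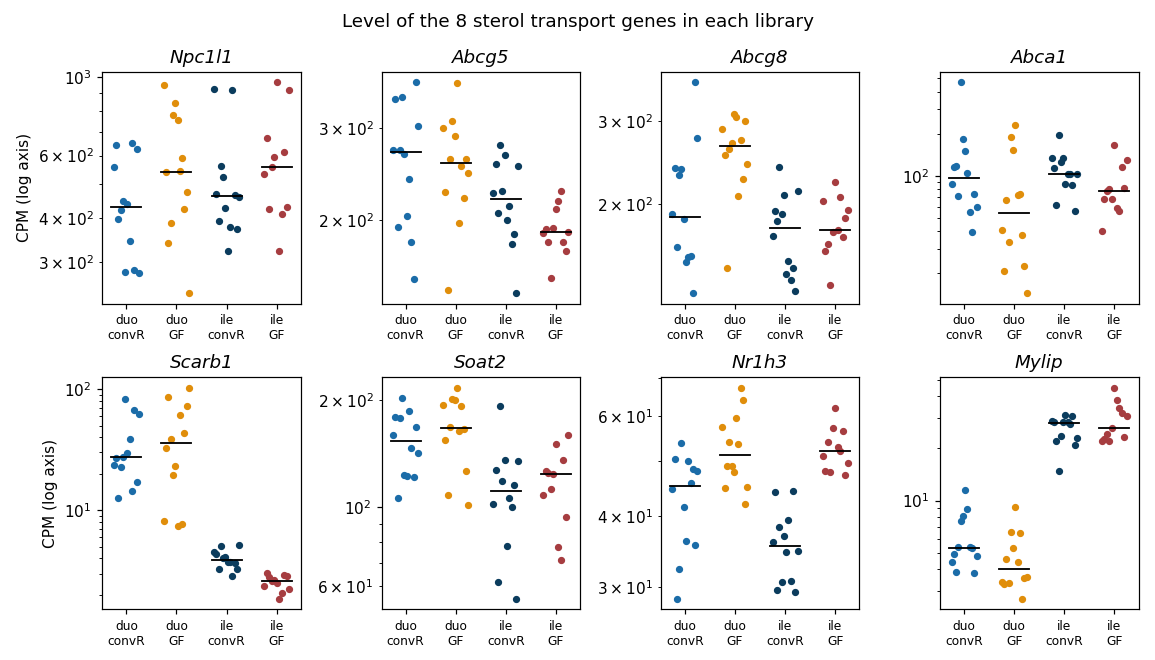
CPM (log axis) of each of the 8 genes in every library of the 4 groups (duo, duodenum; ile, ileum), points ordered by time within a group and black lines at the medians. Scarb1 and Mylip do not overlap between the tissues, and Nr1h3 does not overlap between convR and GF ileum. The share of all genes without overlap was not counted.

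The first question was how the sterol genes differ along the intestine. The HDL receptor gene Scarb1 was far lower in ileum than in duodenum and the ubiquitin ligase gene Mylip far higher, in both convR and GF mice. In convR mice 4 of the 8 members passed the test in edgeR (adjusted p below 0.05 over all genes tested), 1 higher and 3 lower in ileum. The background was 49.6% of 18164 genes called, 24.9% higher and 24.8% lower. In GF mice 5 passed, 1 higher and 4 lower, beside 66.5% of 17909 genes called, 33.2% higher and 33.4% lower. The median log2 difference of the 8 members was -0.22 in each status, and that of all genes 0.01 in each. Where groups are said not to overlap, here and for microbial status, the share of all genes without overlap was not counted.

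Scarb1 ran from 12.7 through a median of 27.3 to 83.3 CPM in convR duodenum and from 7.36 through 35.9 to 102.8 CPM in GF duodenum. In ileum it ran from 2.86 through 3.89 to 5.16 CPM in convR and from 1.87 through 2.61 to 3.06 CPM in GF. The tissues did not overlap, and ileum was lower at 6 of 6 times in either status. The fitted fall was 8.51-fold in convR (log2 -3.09 ± 0.30, SE, edgeR quasi-likelihood adjusted p = 9.98e-08) and 14.9-fold in GF (log2 -3.90 ± 0.43, adjusted p = 4.11e-07). The values were -3.15 (adjusted p = 1.31e-04) and -3.46 log2 (adjusted p = 3.06e-05) without the libraries that stand apart. Its counts in ileum were 63 to 209 reads per library.

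Mylip ran from 3.82 through a median of 5.33 to 11.5 CPM in convR duodenum and from 2.71 through 4.00 to 9.19 CPM in GF duodenum. In ileum it ran from 14.7 through 28.1 to 31.3 CPM in convR and from 22.0 through 26.4 to 45.0 CPM in GF. Every ileal library was above every duodenal library. The rise was 4.30-fold in convR (log2 2.10 ± 0.11, SE, edgeR adjusted p = 2.17e-12) and 6.05-fold in GF (log2 2.60 ± 0.14, adjusted p = 7.27e-12). Leaving out the libraries that stand apart gave 2.27 and 2.56 log2 (edgeR adjusted p = 5.63e-09 and 8.86e-09).

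The efflux pair and the esterifying enzyme were slightly lower in ileum, with overlapping libraries. Soat2 fell by 0.48 ± 0.17 log2 in convR (edgeR adjusted p = 0.0239) and by 0.50 ± 0.16 in GF (adjusted p = 0.0103). Its convR medians were 153.0 CPM in duodenum and 110.9 CPM in ileum. The convR call was lost without the libraries that stand apart (adjusted p = 0.0565, over its alternatives 0.00145 to 0.0565). In GF mice Abcg5 fell by 0.42 ± 0.11 log2 (adjusted p = 0.00208) and Abcg8 by 0.51 ± 0.10 (adjusted p = 1.40e-04), and both were lower in ileum at 6 of 6 times. These 2 genes (-0.48 and -0.57) and Soat2 (-0.71) were still called in GF without the libraries that stand apart. In convR mice the differences of Abcg5 (-0.23 ± 0.11, edgeR adjusted p = 0.0835) and Abcg8 (-0.20 ± 0.11, adjusted p = 0.133) did not pass. Whether the pair's tissue difference depends on status was tested as the tissue dependence of the GF effect and did not pass for either gene (adjusted p = 0.529 and 0.269).

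Npc1l1, which admits sterols, and Abca1, which passes them to HDL, showed no called tissue difference. Npc1l1 ranged over 278 to 653 CPM in convR duodenum and 322 to 923 CPM in convR ileum, a fitted difference of 0.17 ± 0.17 log2 (SE). In GF mice it ranged over 245 to 951 and 322 to 966 CPM, with a difference of 0.11 ± 0.23. Abca1 differed by 0.04 ± 0.25 in convR and 0.36 ± 0.38 in GF, so that its error was wide. Nr1h3 was lower in ileum in convR (log2 -0.27 ± 0.09, edgeR adjusted p = 0.0152), and its difference in GF was -0.01 ± 0.06 (adjusted p = 0.855). The convR value was -0.33 without the libraries that stand apart (adjusted p = 0.0188). Of 9 markers of macrophages, which also express Nr1h3, 7 were lower and 1 higher in ileum in convR (median -0.57 log2), and 7 were lower in GF (median -0.82). Their part in the Nr1h3 value was not tested.

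**Figure D2:**
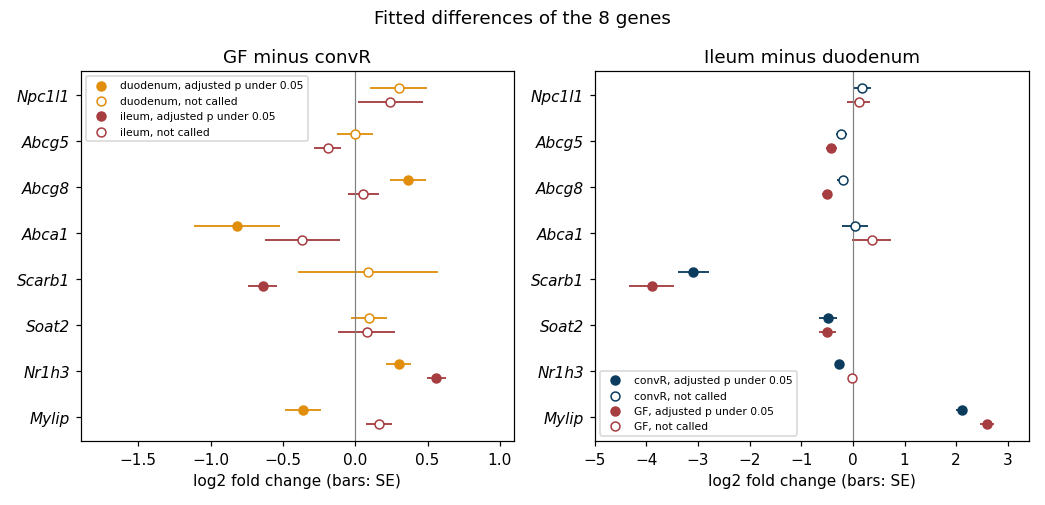
Fitted log2 fold changes with their SE for GF minus convR in each tissue (left) and ileum minus duodenum in each status (right), filled where the adjusted p was below 0.05. Scarb1 at -3.09 and -3.90 and Mylip at 2.10 and 2.60 stand far outside the other genes in the right panel.

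The next question was which members differ with microbial status. In duodenum the LXR alpha gene Nr1h3 and its target Abcg8 were higher in GF mice, while its targets Abca1 and Mylip were lower. Thus 4 of the 8 members passed, 2 in each direction, beside 46.3% of 17986 genes called, 22.5% higher and 23.8% lower. In ileum Nr1h3 was higher and Scarb1 lower in GF, and 2 of 8 passed, 1 in each direction, beside 42% of 18082 genes called, 19.5% higher and 22.4% lower. The duodenal share is near the background and the ileal share below it. The median log2 difference of the 8 was 0.09 in duodenum and 0.07 in ileum, and that of all genes -0.01 and 0.01.

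Nr1h3 was the member that rose in GF mice in both tissues. In ileum it ran from 29.4 through a median of 35.4 to 44.3 CPM in convR and from 47.2 through 52.1 to 62.0 CPM in GF. The ileal groups did not overlap, and the rise was 1.48-fold (log2 0.56 ± 0.07, SE, edgeR adjusted p = 7.54e-07), called under all 29 alternatives. In duodenum it ran from 28.7 through 45.3 to 53.9 CPM in convR and from 42.0 through 51.4 to 67.4 CPM in GF. These overlapped, with 5 of 12 GF libraries above every convR library and a higher GF mean at 6 of 6 times (log2 0.30 ± 0.08, adjusted p = 0.00599). The duodenal call was lost without the libraries that stand apart (log2 0.23, adjusted p = 0.0808, over 30 alternatives 0.00174 to 0.0808). The difference of the GF effect between the tissues, 0.27 ± 0.11 log2, did not pass (edgeR adjusted p = 0.120).

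Macrophages express Abca1 as well as Nr1h3, so their markers are given beside these values too. The summed level of 9 macrophage markers ran from 165 to 250 CPM in convR ileum and from 103 to 130 CPM in GF ileum. In duodenum it ran from 204 to 358 CPM in convR and from 149 to 210 CPM in GF. In GF ileum 9 of 9 of these markers were called lower and in GF duodenum 8 of 9, with medians of -0.85 and -0.58 log2. Nr1h3 and these markers thus moved in opposite directions, while Abca1 in duodenum moved the same way as they did. Of 9 enterocyte markers 5 were called higher and none lower in GF duodenum (median 0.25 log2), and their summed level had medians of 19785 CPM in convR and 25199 CPM in GF. In GF ileum 3 were higher and 1 lower (median 0.07). The part of either marker list in the results was not tested.

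Scarb1 in ileum was 1.56-fold lower in GF mice (log2 -0.64 ± 0.10, SE, edgeR adjusted p = 2.87e-05), lower at 6 of 6 times, with 9 of 11 GF libraries below every convR library. The call held under all 29 alternatives. In duodenum its spread was wide, and the fitted value was 0.09 ± 0.48 log2 (edgeR adjusted p = 0.899). Among convR duodenal libraries those numbered 1 ran from 12.7 to 29.6 CPM and those numbered 2 from 22.7 to 83.3 CPM. Among GF libraries those numbered 1 ran from 7.36 to 85.6 CPM and those numbered 2 from 23.1 to 102.8 CPM. The 2 libraries numbered 1 of GF duodenum that exceeded 30 CPM, at 72.4 and 85.6 CPM, were those with mean pancreatic marker levels of 861 and 719 CPM. The convR libraries numbered 2 at ZT14, ZT18 and ZT22 held 38.8, 67.2 and 62.7 CPM of Scarb1 beside pancreatic means of 227, 95.8 and 331 CPM. Those at ZT2 and ZT6 held less Scarb1, 27.0 and 22.7 CPM, beside pancreatic means of 110 and 107 CPM. In convR the median of these pancreatic means was 2.29 CPM among libraries numbered 1 and 108 CPM among those numbered 2. Scarb1 was also high in convR ZT10 numbered 2, with 83.3 CPM beside 2.34 CPM of pancreatic markers, and in GF ZT14 and ZT22 numbered 2, with 61.2 and 102.8 CPM beside 1.55 and 4.19 CPM. This GF ZT22 library held a mean of 510 CPM of stomach and Brunner gland markers. The convR ZT14 library numbered 1 held 1641 CPM of these beside 29.6 CPM of Scarb1. The part of pancreatic or gastric transcripts in the Scarb1 level was not tested. Without the libraries that stand apart the duodenal value was -0.83 log2 (adjusted p = 0.445, over 30 alternatives 0.445 to 0.993).

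Mylip was the member whose GF effect was called different between the tissues. In duodenum it was 1.29-fold lower in GF (log2 -0.36 ± 0.13, SE, edgeR adjusted p = 0.0212), with a lower mean at 6 of 6 times and 6 of 12 GF libraries below every convR library. In ileum the value was 0.16 ± 0.09 (edgeR adjusted p = 0.150), higher at 4 of 6 times. The difference of these effects, ileum minus duodenum, was 0.53 ± 0.16 log2 (adjusted p = 0.0209), and Mylip was the only member of the 8 with this difference called, beside 12.3% of 19000 genes, 4.58% higher and 7.69% lower. Without the libraries that stand apart the difference was 0.44 (adjusted p = 0.193, over 53 alternatives 0.00328 to 0.193). There the duodenal call was lost too (log2 -0.34, adjusted p = 0.262, over 30 alternatives 0.00266 to 0.262).

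Abca1 in duodenum was 1.76-fold lower in GF (log2 -0.82 ± 0.30, SE, edgeR adjusted p = 0.0310), with a lower mean at 4 of 6 times. It ran from 39.8 through a median of 95.7 to 465 CPM in convR and from 14.4 through 53.8 to 229 CPM in GF, and 5 of 12 GF libraries were below every convR library. The call was lost when any of 8 libraries was left out (convR ZT6 and ZT10 numbered 1 and ZT2 numbered 2, GF ZT2 and ZT22 of either number and ZT6 numbered 2). It was also lost without a filter on low counts and without the libraries that stand apart (log2 -0.66, adjusted p = 0.299, over 30 alternatives 0.00427 to 0.299). In ileum the value was -0.37 ± 0.26 (edgeR adjusted p = 0.279).

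Sterol uptake and esterification were not called different. Npc1l1 had medians of 429 CPM in convR and 540 CPM in GF duodenum, a difference of 0.30 ± 0.20 log2 (SE, edgeR adjusted p = 0.223), and of 460 and 556 CPM in ileum, a difference of 0.24 ± 0.23 (adjusted p = 0.417). It was higher in GF at 4 of 6 times in each tissue. Soat2 differed by 0.10 ± 0.12 log2 in duodenum and 0.08 ± 0.20 in ileum. A p above the threshold does not show that the groups were alike.

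The partners of the efflux pump did not keep the same ratio. Abcg8 was 1.29-fold higher in GF duodenum (log2 0.36 ± 0.12, SE, edgeR adjusted p = 0.0211), from a median of 188 CPM with a range of 129 to 363 in convR to 265 CPM with a range of 146 to 310 in GF. The call was lost with scaling by library size alone (log2 0.24, adjusted p = 0.1002) and with no filter (0.0559, over 30 alternatives 0.00240 to 0.1002), and the value was 0.60 without the libraries that stand apart. Abcg5 had medians of 270 CPM with a range of 155 to 366 and 258 CPM with a range of 147 to 365, and its fitted difference was -0.00 ± 0.12 (edgeR adjusted p = 0.988). In ileum Abcg8 differed by 0.06 ± 0.11 and Abcg5 by -0.19 ± 0.09 log2, neither called.

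Within a library, where scaling cancels, the log2 ratio of Abcg5 to Abcg8 counts averaged 0.36 ± 0.19 in convR duodenum and -0.01 ± 0.14 in GF duodenum (SD, n = 12 and 12). The range was 0.01 to 0.64 in convR and -0.20 to 0.25 in GF, so the groups overlapped in part. The difference was -0.37 log2, lower in GF at 6 of 6 times (exact two-sided permutation within time over 46656 arrangements, p = 8.57e-05, adjusted p = 6.86e-04 over 8 ratio tests). In ileum the ratio averaged 0.33 ± 0.12 in convR and 0.09 ± 0.15 in GF (SD, n = 12 and 11). This difference was -0.25 log2, lower in GF at 5 of 6 times (exact permutation over 23328 arrangements, p = 3.00e-04, adjusted p = 0.00120). Leaving out any library gave -0.40 to -0.35 in duodenum and -0.29 to -0.20 in ileum. Without all that stand apart the values were -0.46 and -0.26 (exact permutation, adjusted p = 0.0370 and 0.00686). Between the tissues the ratio differed by -0.03 in convR and 0.09 in GF (exact permutation, adjusted p = 0.418 and 0.177). The part of reads in overlapping exon bases of the 2 genes (82 in M21, not known for the annotation used for counting) was not tested.

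Levels of the pair nevertheless followed each other closely over libraries of a group. Pearson's r of log2 CPM between Abcg5 and Abcg8 was 0.89 in convR duodenum, 0.92 in GF duodenum and 0.91 in convR ileum, with Spearman's rho of 0.92, 0.87 and 0.95 (n = 12 each; permutation p of r = 1.00e-04, 1.10e-04 and 4.00e-05, adjusted 2.93e-04 each over 8 relations; p of rho = 9.00e-05, 6.20e-04 and 3.00e-05). Without the 2 libraries farthest from the Abcg5 median r was 0.87, 0.83 and 0.90. In GF ileum r was 0.69 and rho 0.54 (n = 11, permutation p = 0.0197 and 0.0936, adjusted 0.0393 and 0.150). There r fell to 0.30 without the 2 libraries farthest from the Abcg5 median, a step that also narrows the range of Abcg5. It was 0.70 without the libraries that stand apart and 0.51 with scaling by library size only (permutation, adjusted p = 0.0463 and 0.174). The relation in GF ileum is therefore less sure. Libraries of a group also share their time of day and scaling.

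The uptake and efflux genes were compared in the same way. Between Npc1l1 and Abcg5 r was 0.29, 0.61, 0.10 and -0.11 in convR duodenum, GF duodenum, convR ileum and GF ileum (n = 12, 12, 12 and 11), with rho of 0.23, 0.67, 0.31 and -0.10. The permutation p of r was 0.358, 0.0337, 0.757 and 0.740, with adjusted values of 0.477, 0.0539, 0.757 and 0.757. For rho the permutation p was 0.470, 0.0206, 0.318 and 0.774, and the adjusted values were 0.538, 0.0413, 0.424 and 0.774. Without the 2 libraries farthest from the Npc1l1 median r was 0.68, 0.75, 0.59 and -0.11. The log2 ratio of Npc1l1 to Abcg5 averaged 0.76 ± 0.52 in convR duodenum, 1.09 ± 0.46 in GF duodenum, 1.17 ± 0.53 in convR ileum and 1.54 ± 0.53 in GF ileum (SD, n = 12, 12, 12 and 11). The GF differences of 0.34 and 0.36 log2 did not pass (exact permutation p = 0.0805 and 0.155, adjusted 0.129 and 0.177). The tissue differences, 0.42 in convR and 0.44 in GF, did not pass after adjustment either (p = 0.0308 and 0.0499, adjusted 0.0821 and 0.0997). With the 12 convR pairs of equal number and time, a test added after seeing the data, the convR value passed, and ileum was higher in 9 pairs (exact two-sided permutation over 4096 sign changes, p = 0.0103, adjusted 0.0273). Without the libraries that stand apart the tissue values were 0.48 and 0.32 (unpaired exact permutation, adjusted p = 0.231 each).

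**Figure D3:**
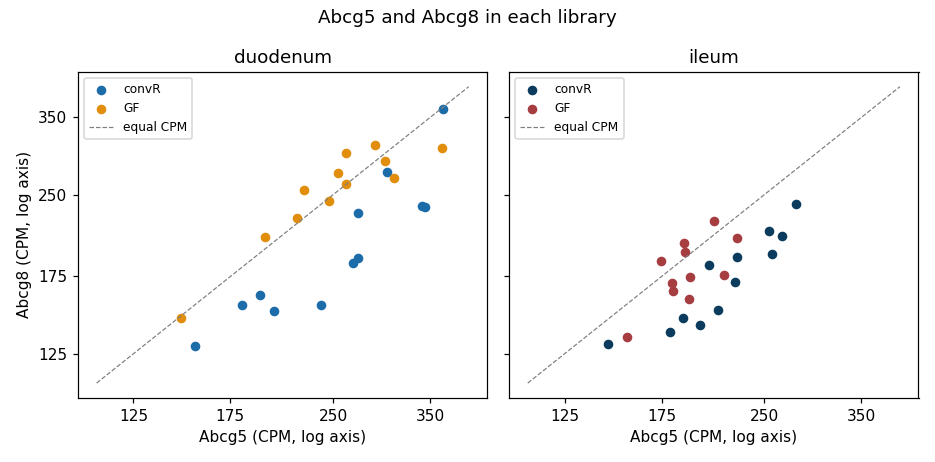
CPM of Abcg8 against CPM of Abcg5 (both log axes) in every library, by tissue and status, with a dashed line of equal CPM. GF libraries lie nearer to or above the line and convR libraries mostly below it, as the mean log2 ratios of 0.36 and -0.01 in duodenum and 0.33 and 0.09 in ileum state.

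Daily rhythm was tested by fitting a cosine of 24 h to each group. Abca1 in GF duodenum was the member called, 1 of 8 beside 2.68% of 16097 genes. Its peak-to-trough amplitude was 3.14 log2 with a peak at ZT 11.7 (edgeR F test, adjusted p = 0.0266). At ZT2, 6, 10, 14, 18 and 22 its GF duodenal means were 30.8, 50.2, 170, 151, 55.9 and 18.5 CPM (2 libraries each). The highest means were those at ZT10 and ZT14, and the lowest was at ZT22. The call was lost without the libraries that stand apart (adjusted p = 0.173, over 6 alternatives 1.62e-06 to 0.206), without either replicate number and with time as a 6-level factor.

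In convR duodenum no member was called, beside 0.0301% of 16616 genes. Abca1 means there were 101, 94.0, 323, 128, 47.2 and 67.0 CPM over the same times, an amplitude of 2.13 log2 with a peak at ZT 9.11 (edgeR adjusted p = 0.235). The ZT10 libraries held 465 and 182 CPM, the highest of the group. In ileum the amplitudes of Abca1 were 0.68 log2 in convR and 0.74 in GF (edgeR adjusted p = 0.738 and 0.803). No member was called there either, beside 0.133% of 16564 genes in convR and 1.39% of 16300 in GF.

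Mylip had its highest mean at ZT14 in 4 of 4 groups, without passing the test in any. Its duodenal means were 4.65 CPM at ZT2 and 10.2 CPM at ZT14 in convR, and 3.33 and 6.80 CPM in GF. In ileum they were 28.6 CPM at ZT2, 18.4 CPM at ZT6 and 29.8 CPM at ZT14 in convR, and 22.0, 23.4 and 41.6 CPM in GF, where ZT2 is 1 library. Fitted amplitudes were 1.18 log2 (peak ZT 12.7, edgeR adjusted p = 0.0998) and 1.04 (peak ZT 12.8, adjusted p = 0.157) in convR and GF duodenum. They were 0.39 (adjusted p = 0.740) and 0.84 (peak ZT 15.8, adjusted p = 0.0574) in convR and GF ileum. DESeq2 called Mylip in both duodenal groups and in GF ileum (adjusted p = 1.70e-04, 0.0345 and 0.00124), against ranges over 6 alternatives of 1.70e-04 to 0.962, 0.0345 to 0.510 and 0.00124 to 0.614. Over all genes DESeq2 called 463 of 15971, 1094 of 15160 and 642 of 15035 in these groups.

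The other 6 members had fitted amplitudes of at most 1.11 log2 in any group, and none was called. Scarb1 in duodenum was loosely fixed, with 1.72 log2 in convR without the libraries that stand apart and 1.43 and 3.41 in GF when a replicate number was left out, uncalled each time (adjusted p = 0.823, 0.906 and 0.549). For Npc1l1 they were 0.56, 0.57, 0.49 and 0.11 log2 in convR duodenum, GF duodenum, convR ileum and GF ileum. No member's rhythm differed between GF and convR in edgeR, in either tissue, beside 0% of 17986 genes in duodenum and 0% of 18082 in ileum. DESeq2 also called 0 genes. At an unadjusted p below 0.05 edgeR counted 739 of 17986 genes in duodenum and 608 of 18082 in ileum. Each share is below the 5% that would pass with no difference. The genes counted included Abcg8 and Abcg5 in ileum (edgeR unadjusted p = 0.00373 and 0.0305, each adjusted to 0.9999), so these values are no sign of a rhythm difference. Abca1 in duodenum had an unadjusted p of 0.0511.

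**Figure D4:**
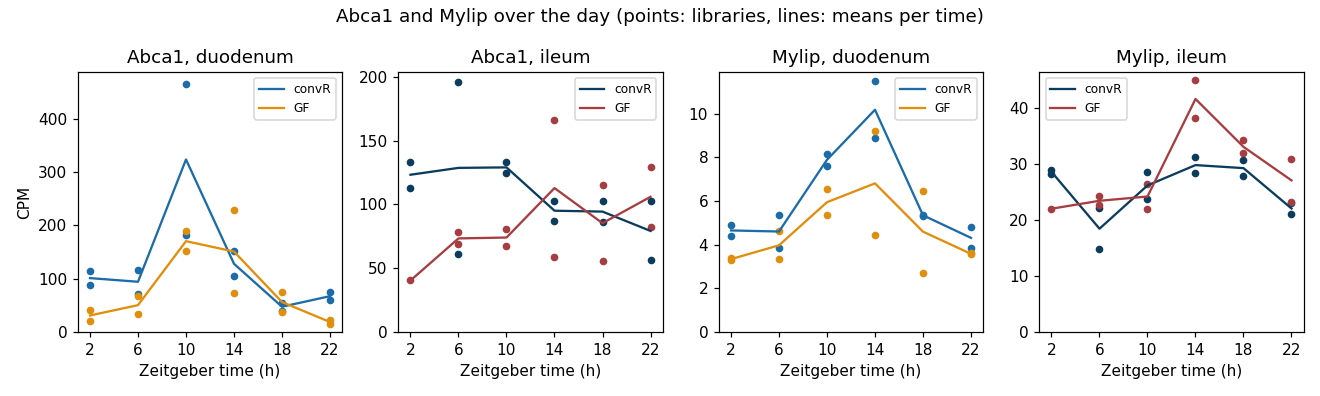
CPM of Abca1 and Mylip against zeitgeber time in duodenum and ileum, with points for libraries and lines for means per time. Abca1 in duodenum is highest at ZT10 in both statuses (323 CPM in convR and 170 CPM in GF), and Mylip is highest at ZT14 in all 4 groups.

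Partners and further targets of LXR were split in direction. Of 13 such genes 2 rose and 5 fell in GF duodenum (median -0.03 log2) and 4 rose and 7 fell in GF ileum (median -0.16). The background was 22.5% of genes called higher and 23.8% lower in duodenum, and 19.5% and 22.4% in ileum. The counts were the same without the libraries that stand apart, beside 16.9% and 17.2% in duodenum and 18% and 21% in ileum. Rxra, the partner with which LXR binds DNA, rose in duodenum from 142 ± 8.95 to 199 ± 17.2 CPM (SD, n = 12 and 12; log2 0.48, edgeR adjusted p = 1.82e-07). Arl4c, a small GTPase, and Pltp, which transfers phospholipid between lipoproteins, fell there by 0.63 and 0.50 log2 (adjusted p = 1.20e-05 and 1.81e-05). In ileum Pltp fell by 0.88, Smpdl3a, a phosphodiesterase, by 0.66 and Apoe, an apolipoprotein that macrophages secrete, by 0.81 log2 (adjusted p = 1.95e-08, 3.31e-08 and 1.23e-07). The macrophage markers given above fell in the same libraries, and their part in these values was not tested.

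Genes of sterol traffic and lipoprotein export held more rises. Of 22 tested in duodenum 10 rose and 2 fell (median 0.21 log2), and of 21 tested in ileum 12 rose and 3 fell (median 0.23), beside the same background. When the libraries that stand apart were left out, 8 rose and 1 fell in duodenum, and 11 rose and 3 fell in ileum. The enterocyte markers given above also leaned higher in GF duodenum, and their part in these counts was not tested. Cd36, a fatty acid receptor, rose in GF duodenum from 76.7 ± 17.6 to 224 ± 69.6 CPM (SD, n = 12 and 12; log2 1.53, edgeR adjusted p = 9.26e-08). Osbpl1a, an oxysterol-binding protein, rose there by 1.11 log2 (adjusted p = 6.82e-06). Gramd1a, which carries cholesterol from the plasma membrane to the endoplasmic reticulum, fell by 0.66 in duodenum and 1.29 in ileum (edgeR adjusted p = 1.16e-07 and 3.84e-08). In ileum Soat1, the other sterol acyltransferase, fell by 0.37 log2 and Nceh1, a cholesterol ester hydrolase, rose by 0.75 (adjusted p = 4.66e-07 and 1.49e-06).

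Targets of SREBP2, the factor that drives cholesterol synthesis and LDL uptake when cell sterols are low, held many rises in GF ileum. In GF duodenum 8 of the 26 rose and 1 fell (median 0.11 log2), and 23 rose and 1 fell in GF ileum (median 0.50), beside 22.5% and 19.5% of all genes called higher. The difference of the GF effect, ileum minus duodenum, was called higher for 9 and lower for 1 of the 26 (median 0.37), beside 4.58% and 7.69% of all genes. Without the libraries that stand apart it was called higher for 4 and lower for none (median 0.35), beside 3.89% and 4.11%. Between the tissues 23 of 26 were higher in ileum in convR and 23 in GF (medians 1.04 and 1.43), and none was called lower, beside 24.9% and 33.2% of all genes called higher. Without those libraries 22 and 23 were called higher and none lower. Msmo1 and Hsd17b7, both of the late pathway, rose by 0.39 and 0.32 log2 in duodenum (adjusted p = 1.73e-05 and 2.08e-05). Dhcr7 and Mvk, mevalonate kinase, each rose by 0.60 log2 in ileum (adjusted p = 2.40e-07 and 1.55e-06). The 8 duodenal genes named here from the lists (Rxra, Arl4c, Pltp, Cd36, Osbpl1a, Gramd1a, Msmo1 and Hsd17b7) were each still called in GF duodenum without those libraries (edgeR adjusted p = 2.93e-05 to 0.0118). Npc1l1, itself regulated by SREBP2, was not called in these comparisons.

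**Figure D5:**
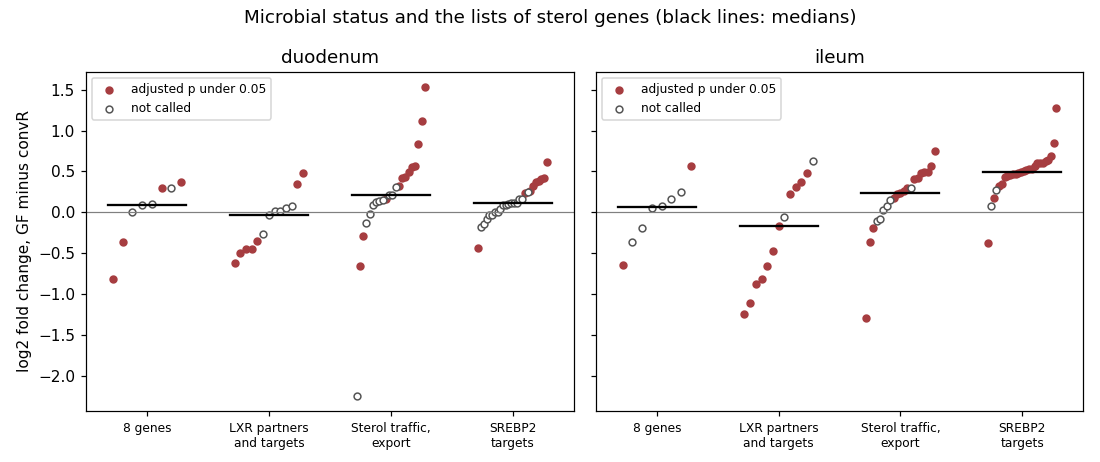
Log2 fold changes, GF minus convR, of the 8 genes and of the 3 lists of sterol genes in duodenum and ileum, 1 point per gene, red where the adjusted p was below 0.05, black lines at the medians. The median of the SREBP2 targets is 0.11 in duodenum and 0.50 in ileum, and the 8 genes spread on either side of 0 in both.

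Genes whose pattern over the 24 combinations of tissue, status and time was most like each member were listed by Pearson's r of log2 mean CPM among 12125 genes, as a description. For Scarb1 they were Car2, Fth1 and Fam96a (r = 0.99, 0.98 and 0.98), for Mylip Eef2k, Krt8 and Foxa1 (0.98, 0.97 and 0.97), and for Soat2 Slc43a2, Mir3971 and Prr5l (0.94, 0.93 and 0.92). For Nr1h3 they were Abhd6, Slc25a34 and Aqp7 (0.92, 0.90 and 0.90), and for Abcg8 Zmat5, Tmub2 and Ctns (0.88, 0.86 and 0.84). Npc1l1 (Ldb3, Atg4c and Fam160a2, each 0.78), Abcg5 (Trappc2l, Cyp3a59 and Slc38a7, 0.78, 0.77 and 0.76) and Abca1 (Me2, Cyth1 and Stk10, 0.81, 0.77 and 0.74) had looser neighbours. Among the members themselves r was 0.78 between Abcg5 and Abcg8 and -0.92 between Scarb1 and Mylip, the highest and lowest of their pairs. All these r pool both tissues. For Scarb1 and Mylip, which do not overlap between the tissues, they therefore largely restate the tissue difference.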

How the data were processed

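RNA was sequenced from 47 libraries of duodenum and ileum. Reads were aligned with STAR 2.4.0i to mm10, per the submitters' processing notes. The authors deposited whole-number read counts per gene, summed over its exons, and the exon length. How reads were counted, by which annotation and whether by strand, is not given in the sources used here. All values were used as deposited, and each sample's column was matched by its name.

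CPM used edgeR's TMM factors. Each comparison was fitted with edgeR 4.0.16 (quasi-likelihood, robust, R 4.3.3) over the genes kept by its filter at 10 counts, with status, tissue and time as terms, and p-values were Benjamini-Hochberg adjusted over all genes, called at 5%. Rhythm was an F test of a 24 h cosine. Ratios of counts used a pseudocount of 0.5 and an exact permutation test, and correlations 100000 resamples. The scripts were tested on simulated data. Alternatives were DESeq2 1.42.0, library size only, no filter, no libraries that stand apart (a mean of pancreatic or gastric markers over 100 CPM, a TMM factor over 1.2, or Fabp6 below 1000 CPM in ileum), a replicate block, and libraries left out in turn.

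Replicate numbers paired the tissues in convR, where residuals of equal numbers correlated at 6 of 6 times (0.246 to 0.560). There the blocked fit changed no member's call. The 2 libraries of a time and group differed by more than counting noise (chi-square per degree of freedom 16.9 to 145). The 8 genes, the 3 lists and the markers were chosen with earlier results of these data known. Named genes were the 8 members, the 3 genes of each list with the smallest p in each GF comparison at a mean of at least 2 CPM, and the 3 genes most like each member, passing over predicted genes and pseudogenes. A gene that this rule names is not reported here.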

Additional observations from a re-analysis of the deposited data

Results flagged for a closer look

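For 9 of the members and list genes named above the GF effect differed between duodenum and ileum in edgeR's test of that difference (adjusted p below 0.05). Over all genes this test called 12.3% of 19000. Apart from Mylip, these genes had been named for a small p in the GF comparison of a tissue in these same data. That choice can favour a difference between the tissues. All values are ileum minus duodenum on the log2 scale. Mylip, a member, differed by 0.53. Among LXR partners and targets Rxra differed by -0.25, Arl4c by -0.48 and Pltp by -0.38. Among genes of sterol traffic Cd36 differed by -1.61, Gramd1a by -0.63, Osbpl1a by -0.61, Soat1 by -0.52 and Nceh1 by 0.77. Without the libraries that stand apart Cd36 (-1.93), Soat1 (-0.54) and Nceh1 (0.90) were still called, and Mylip, Rxra, Arl4c, Pltp, Gramd1a and Osbpl1a were not (adjusted p = 0.0578 to 0.221).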

How the results depend on the processing

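Apart from leaving out libraries or replicate numbers, 399 values of members kept direction and side of the threshold, 14 changed sign, 10 lost and 9 gained a call. Depth limits Mylip in duodenum (80 to 351 counts) and Scarb1 in ileum (63 to 209) most. In the duodenal GF comparison 2 of 8 members were called with no filter and 1 without the libraries that stand apart, against 4. Over all genes 7926 of 31791 and 6201 of 18211 were called there, against 8328 of 17986. For the tissue dependence 2 members were called with library size only and 0 without those libraries, against 1. Over all genes this test called 2182 of 19000 and 1541 of 19276, against 2331 of 19000. In the rhythm tests DESeq2 called 2 in convR duodenum, 2 in GF duodenum and 1 in GF ileum. Over all genes it called 463 of 15971, 1094 of 15160 and 642 of 15035 there, against 5 of 16616, 432 of 16097 and 226 of 16300 in edgeR. Also called was 1 in convR duodenum with no filter (32 of 29915 genes). In GF duodenum 0 were called without the libraries that stand apart (477 of 16284 genes) or with time as a factor (147 of 16097). In GF ileum 1 was called with library size only (238 of 16300 genes) or without those libraries (219 of 16304). The cause was not tested.

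Some uncalled values changed sign. In the duodenal GF comparison Abcg5 was 0.0051 with DESeq2 and 0.15 without the libraries that stand apart, and Scarb1 was -0.029 with library size only, -0.83 without those libraries and -0.026 with the replicate block. Soat2 was -0.027 with library size only. For the tissue dependence Npc1l1 was 0.015 and Soat2 0.057 with library size only, Scarb1 was 0.29 without those libraries and Soat2 was 0.019 with the replicate block. For ileum against duodenum in GF Nr1h3 was 0.11 with library size only and 0.0032 with the replicate block, and Npc1l1 was -0.13 and Abca1 -0.030 without those libraries. The correlation of Abcg5 with Abcg8 in GF ileum was 0.51 (adjusted p = 0.174) and that of Npc1l1 with Abcg5 in convR ileum -0.0016 with library size only.

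Leaving out 1 library gave 3 to 4 called members in the duodenal GF comparison, 2 to 3 in ileum, 1 to 2 for the tissue dependence, 4 to 6 for the tissues in convR and 5 in GF. For GF against convR in ileum Abcg5 was called without convR ZT22 replicate 1 or GF ZT18 replicate 1, and Mylip without GF ZT2 replicate 2. Without convR duodenum ZT6 replicate 1 Nr1h3 was called for the tissue dependence, and Abcg5 and Abcg8 between tissues in convR, Abcg5 also without convR ileum ZT6 replicate 2. Abcg5 ran from -0.083 to 0.051 and Scarb1 from -0.13 to 0.33 in the duodenal GF comparison, and Soat2 from -0.0014 to 0.21 in ileum. For the tissue dependence Npc1l1 ran from -0.20 to 0.063 and Soat2 from -0.092 to 0.12. Abca1 ran from -0.12 to 0.19 between the tissues in convR, and Npc1l1 from -0.013 to 0.20 and Nr1h3 from -0.030 to 0.014 in GF. The Npc1l1 to Abcg5 ratio ran from 0.26 to 0.42 in duodenum and from 0.23 to 0.50 in ileum for GF against convR, from 0.32 to 0.51 between tissues in convR and from 0.31 to 0.58 in GF. It passed without convR duodenum ZT18 replicate 1 for status, without convR duodenum ZT14 or ZT18 replicate 1 or convR ileum ZT2 or ZT18 replicate 2 between tissues in convR, and without GF ileum ZT14 replicate 2 in GF. Without replicate 1 or 2, 0 members were called rhythmic in GF duodenum.

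Across status, and between tissues in GF, equal replicate numbers correlated at -0.06 to 0.34 and did not pair at every time. The highest values were 0.253 in duodenum and 0.336 in ileum across status, and 0.133 between tissues in GF. In duodenum Fabp6 was 0.956 to 2.63 CPM in libraries numbered 1 and 0.227 to 0.660 CPM in those numbered 2. Neither the replicate block nor a 2-level replicate term, added after seeing the data, changed a member's call, and the block left 4, 2, 1, 4 and 5 members called. With convR libraries of equal number as a replicate block, the Npc1l1 to Abcg5 ratio between tissues, 0.42, gained a call (exact permutation, adjusted p = 0.0273). Scaling by library size only moved the median log2 of all genes in the duodenal GF comparison from -0.01 to -0.14.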
